A study of Mus musculus with 6 samples.

Results

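The sarcomeric myosin heavy chains are the motor proteins of the thick filament in striated muscle, and 9 of their genes were followed here in tibialis anterior, a fast limb muscle of the mouse. The members are Myh1, Myh2, Myh3, Myh4, Myh6, Myh7, Myh7b, Myh8 and Myh13. They were chosen by name as the probe sets whose only gene symbol in the platform annotation is one of these. Each had exactly 1 such probe set, so the group holds 9 of the 19938 genes that have a single-symbol probe set on the array. No further probe set named a member beside other genes.

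A sarcomeric myosin has a motor head that splits ATP and pulls on actin, and a coiled tail that packs into the thick filament. Fibre types are named after the heavy chain they use. Myh7 encodes the slow type I chain, which is also the main ventricular chain of large mammals, while Myh2, Myh1 and Myh4 encode the fast IIa, IIx and IIb chains, in order of rising shortening speed. Myh3 (embryonic) and Myh8 (perinatal) are used by developing and regenerating fibres. Myh6 is a cardiac chain, Myh13 is known from extraocular muscle, and Myh7b is an ancient relative of Myh7. In limb muscle of adult mice, the tibialis anterior is known as a mostly IIb and IIx muscle with a deeper part richer in IIa fibres.

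The study compared 3 arrays of tibialis anterior from control C57Bl6J mice with 3 arrays from mice carrying a transgene labelled MLC-SOCS-3 on the same C57Bl6J background. SOCS-3 is an intracellular inhibitor of cytokine and insulin signalling. All mice were 11 weeks old, were starved for 6 h before the muscle was taken, and carried no other allele or treatment named in the labels. The labels do not say which promoter drives the transgene, which part of Socs3 it holds, how many founder lines were used, or whether the replicates are separate animals, and p-values therefore cover only the variation among these arrays, of which an unknown share may be technical. The arrays hybridised RNA of tibialis anterior muscle, in which fewer fibres of a type and less RNA per fibre cannot be told apart. The sample titles do not say whether the whole muscle was used.

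Values are log2 RMA intensities, and the median probe set of the table averaged 5.99. The defining genes of skeletal muscle were bright: the 6 whole-muscle genes (Ckm, Acta1, Des, Tnnt3, Mylpf and Mb) averaged between 13.91 and 13.98 on every array. The targeted gene did not mark the labels, since both Socs3 probe sets were lower on the arrays labelled MLC-SOCS-3 (-0.26 ± 0.07 and -0.22 ± 0.08, log2 difference ± SE; limma adjusted p = 0.80 and 0.82). Directions are therefore given for the arrays as labelled, and those labelled MLC-SOCS-3 are also called transgene-labelled. Control replicate 1 stood apart from the other controls for Myh2 and Myoz2, and the differences and isoform balances of Myh2 are given with and without it.

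Of the members, 6 lie side by side on chromosome 11, in the order Myh3, Myh2, Myh1, Myh4, Myh8 and Myh13 with no other protein-coding gene between them in the GRCm38.p6 gene table. Myh6 and Myh7 are neighbours on chromosome 14, and Myh7b lies alone on chromosome 2. Neighbouring genes of the chromosome 11 run gave very different intensities. Myh4 and Myh1 were among the brightest probe sets, and Myh8 averaged 1.32 log2 units above the median probe set. The promoters of the 3 adult fast genes and of Myh8 also share runs of letters. For these reasons the sequences before their annotated starts are shown. All are on the + strand of GRCm38.p6, from RefSeq: Myh2 at chr11:67170777-67171026, Myh1 at chr11:67199852-67200101, Myh4 at chr11:67237562-67237811 and Myh8 at chr11:67276874-67277123. Capitals mark the A/T-rich element described next (15 bases), the shared run (14 bases) and, where present, TATAAA.
Myh2: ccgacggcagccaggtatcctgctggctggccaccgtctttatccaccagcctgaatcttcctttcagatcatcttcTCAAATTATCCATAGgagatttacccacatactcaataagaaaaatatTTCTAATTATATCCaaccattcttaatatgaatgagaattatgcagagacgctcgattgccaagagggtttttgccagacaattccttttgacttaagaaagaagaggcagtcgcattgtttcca
Myh1: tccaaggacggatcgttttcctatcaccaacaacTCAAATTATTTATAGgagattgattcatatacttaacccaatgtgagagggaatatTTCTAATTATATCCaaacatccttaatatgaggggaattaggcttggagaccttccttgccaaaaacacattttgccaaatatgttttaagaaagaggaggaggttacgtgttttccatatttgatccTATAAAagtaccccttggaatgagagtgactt
Myh4: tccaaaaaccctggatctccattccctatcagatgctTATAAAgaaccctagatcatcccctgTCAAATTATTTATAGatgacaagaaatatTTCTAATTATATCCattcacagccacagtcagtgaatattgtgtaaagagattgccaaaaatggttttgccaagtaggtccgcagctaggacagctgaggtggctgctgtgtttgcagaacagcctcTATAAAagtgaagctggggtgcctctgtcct
Myh8: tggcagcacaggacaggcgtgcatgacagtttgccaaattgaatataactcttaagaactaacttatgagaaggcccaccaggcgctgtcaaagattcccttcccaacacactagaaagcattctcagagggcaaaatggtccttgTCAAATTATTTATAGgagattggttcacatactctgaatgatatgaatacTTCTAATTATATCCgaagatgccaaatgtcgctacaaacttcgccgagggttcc

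The longest run of letters common to the promoters of Myh1, Myh2 and Myh4 was AATATTTCTAATTATATCCA, of 20 bases. It was found on either strand in 3 of the 32851 promoters in the RefSeq table (0.00913%), these 3. Its core TTCTAATTATATCC, of 14 bases, was also in the Myh8 promoter and in no other, so in 4 promoters (0.0122%). Relative to the annotated start it began at -160 in Myh1, -158 in Myh4, -125 in Myh2 and -54 in Myh8. The windows of Myh3 and Myh13, at the ends of the gene run, did not hold these letters.

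Upstream of this run lay an A/T-rich element that was identical in Myh1, Myh4 and Myh8 and not in Myh2. In those 3 promoters it matched the MEF2 consensus, searched on both strands, which 3.19% of all promoters held. The counterpart in Myh2 differed at 2 neighbouring bases, T10C and T11C, counted from 1 at the 5′ end of the element as in Myh1. With these letters the Myh2 window held no match to the consensus. The lines show the element in lower case with the differing bases in capitals.
Myh1: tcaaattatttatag
Myh4: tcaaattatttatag
Myh8: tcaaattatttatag
Myh2: tcaaattatCCatag

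TATAAA, searched on both strands, was within 300 bases around the start in 13.6% of all promoters. On the + strand it began at -29 in Myh3, -32 in Myh1, -31 and -213 in Myh4, and at 10, after the start, in Myh2. The matches on the other strand in Myh1, Myh4 and Myh8 lay inside the A/T-rich element. The E-box letters CANNTG, present in 72.3% of all promoters, were found 3 times in Myh4, 2 times each in Myh8 and Myh13, 1 time in Myh3 and in neither Myh1 nor Myh2. In global alignments of the whole 300 bases, Myh1 and Myh4 were identical at 63.0% of positions, and Myh1 and Myh2 at 61.3%. For comparison, Myh7 and Myh7b, which lie on different chromosomes, reached 55.7%, and the lowest pair of members, Myh1 and Myh13, 48.0%. Myh8 was identical at 54.0% of positions with Myh2, 52.7% with Myh1 and 52.3% with Myh4, within the range of such pairs. A match is a description of letters and not a shown binding site.

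**Figure D1:**
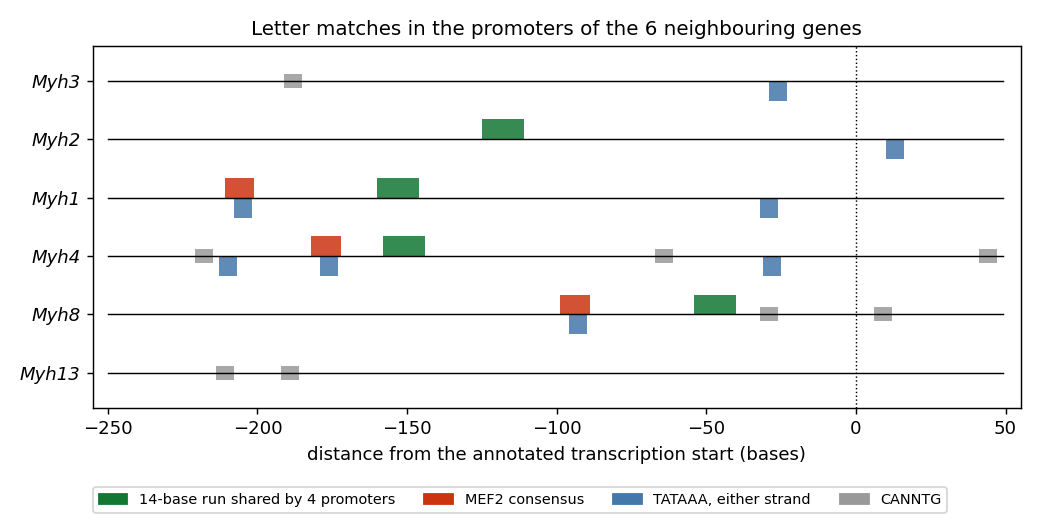
Positions of letter matches in the promoters of the 6 neighbouring genes on chromosome 11. The x axis gives the distance in bases from the annotated transcription start, and boxes mark the 14-base run (green), the MEF2 consensus (red), TATAAA on either strand (blue) and CANNTG (grey). The green run is in Myh2, Myh1, Myh4 and Myh8, and the red consensus is in Myh1, Myh4 and Myh8 but not in Myh2.

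None of the 9 genes passed the test between the labelled groups. In limma's test over all 35557 probe sets, 0 members passed an adjusted p of 0.05 in either direction, against 0% of all probe sets in each direction. At an unadjusted p under 0.05, 0 members were counted, against 5.92% of all probe sets (2.52% higher and 3.4% lower on the arrays labelled MLC-SOCS-3). Adjusted p-values of the members lay between 0.83 and 0.98. Differences, MLC-SOCS-3 minus control, were positive for 3 members and negative for 6 (46.8% of all probe sets were positive), with a median of -0.035 beside -0.0094 over all probe sets. The groups did not overlap for Myh1, which was higher (5.04% of all probe sets were separated in that direction), or for Myh2, which was lower (6.76%).

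**Figure D2:**
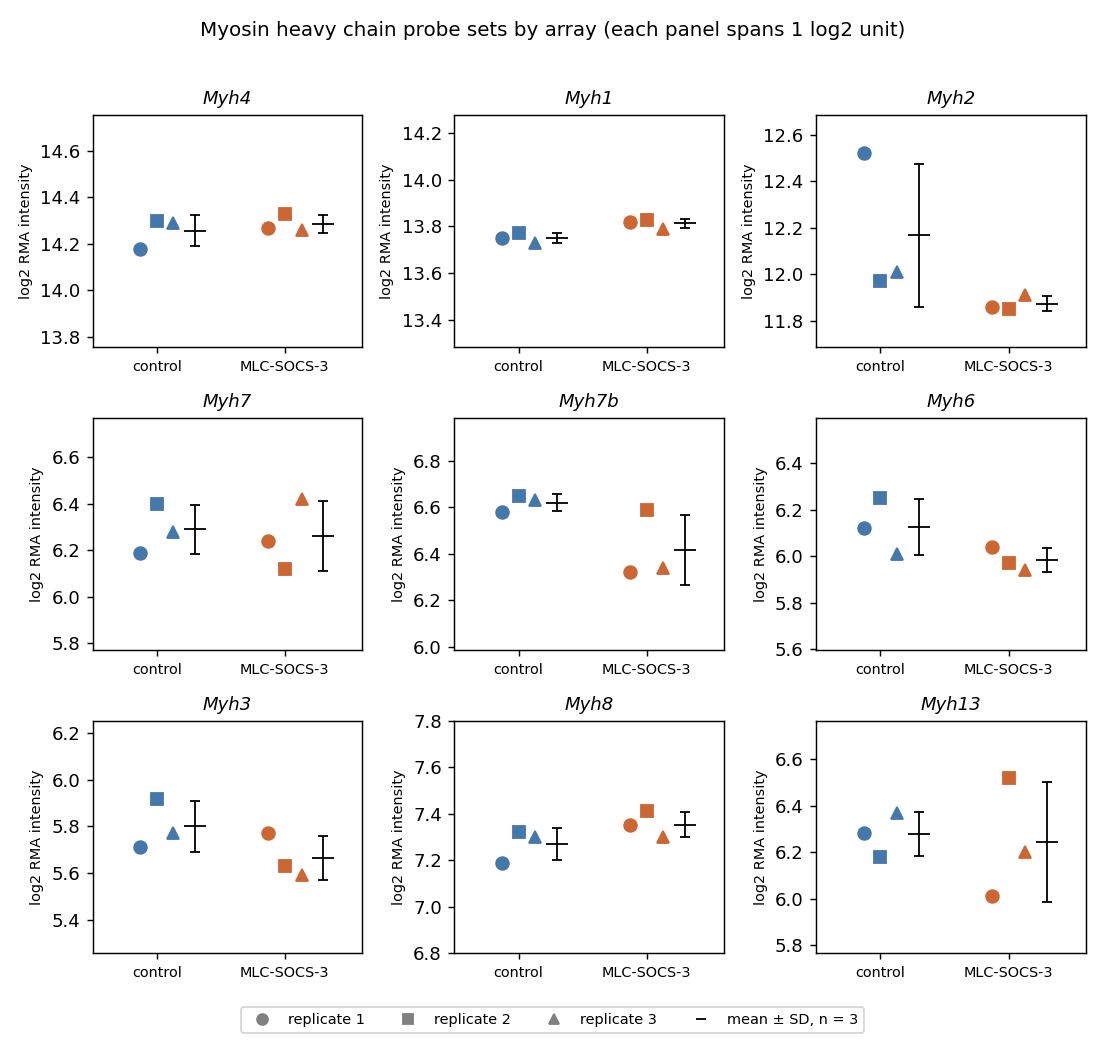
Log2 RMA intensity of each myosin heavy chain probe set on the 6 arrays. Every panel spans 1 log2 unit, points are arrays (shape by replicate number) and bars are mean ± SD with n = 3. Myh1 stays within 0.096 units over all 6 arrays, while Myh2 spans 0.67 because of control replicate 1 at 12.52.

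The IIb gene Myh4 gave the highest intensities of the family and differed little between arrays. Myh4 read 14.18, 14.30 and 14.29 on control replicates 1 to 3, and 14.27, 14.33 and 14.26 on the arrays labelled MLC-SOCS-3. The lowest value was that of control replicate 1, and the other 5 lay within the same narrow band, so the groups overlapped. The difference was 0.033 ± 0.067 (SE), with a 95% interval from 0.914-fold to 1.15-fold (limma adjusted p = 0.96). Without control replicate 1 the difference was -0.0050.

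The IIx gene Myh1 was the steadiest member. It read 13.75, 13.77 and 13.73 on the control arrays and 13.82, 13.83 and 13.79 on the arrays labelled MLC-SOCS-3. Every array labelled MLC-SOCS-3 lay above every control, by at least the small gap between 13.77 and 13.79. The mean was 13.75 ± 0.02 (SD, n = 3) in controls and 13.81 ± 0.02 (SD, n = 3) in the other group, a 1.04-fold difference (0.060 ± 0.058, SE). The 95% interval ran from 0.945-fold to 1.15-fold, and the adjusted p in limma was 0.89.

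The spread of Myh1 within groups was small for this table. Its pooled SD of 0.019 was below that of all but 0.416% of probe sets, and limma's moderated SE draws such a spread towards the typical one. When limma's moderation followed the mean and was made robust, the SE was 0.024, the unadjusted p 0.041 and the adjusted p 0.86. Very bright probe sets are compressed on this scale, so a small log2 difference of Myh1 or Myh4 can understate a difference in RNA.

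The IIa gene Myh2 lay below every control on each array labelled MLC-SOCS-3, and 1 control array set much of the size. Myh2 read 12.52, 11.97 and 12.01 on control replicates 1 to 3 and 11.86, 11.85 and 11.91 on the arrays labelled MLC-SOCS-3. Control replicate 1 lay far above the rest, and the other 5 values fell within a narrow band. The mean was 12.17 ± 0.31 (SD, n = 3) in controls and 11.87 ± 0.03 (SD, n = 3) in the other group, so the controls varied far more.

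The difference for Myh2 of -0.30 ± 0.15 (SE), or 1.23-fold lower, did not pass limma's test (adjusted p = 0.86, 95% interval -0.67 to 0.082). Without control replicate 1 the difference was -0.12 ± 0.07 (SE), 1.09-fold lower, with an adjusted p of 0.98 in limma. The 2 controls left, at 11.97 and 12.01, still lay above the highest array labelled MLC-SOCS-3, at 11.91. Leaving out either of the other controls gave -0.39 and -0.37.

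**Figure D3:**
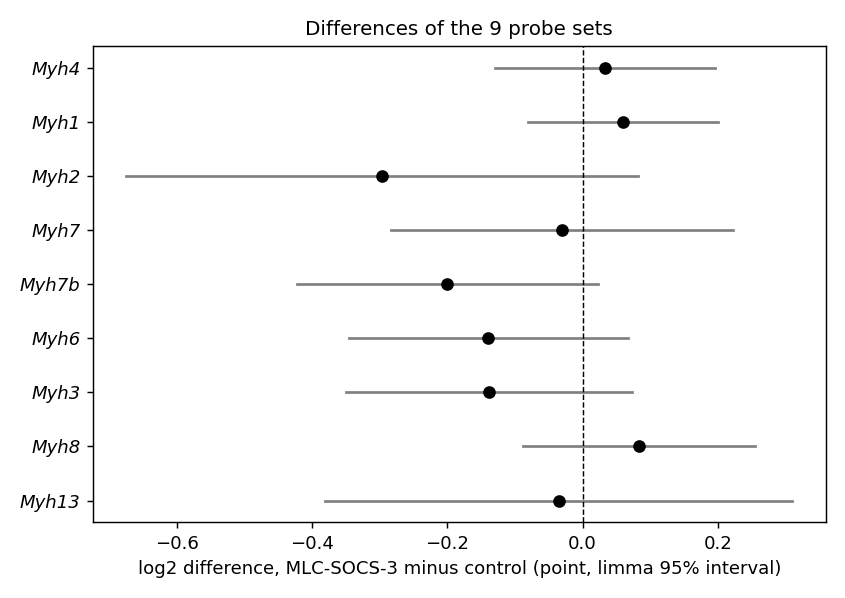
Log2 difference, MLC-SOCS-3 minus control, for each of the 9 probe sets, with points for the estimate and lines for limma's 95% interval. All 9 intervals include 0, and the interval of Myh2 is the widest, from -0.67 to 0.082.

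The slow type I gene Myh7 gave intensities close to the median probe set. Myh7 read 6.19, 6.40 and 6.28 on the control arrays and 6.24, 6.12 and 6.42 on the arrays labelled MLC-SOCS-3. Both the lowest and the highest value came from the arrays labelled MLC-SOCS-3, and the groups overlapped fully. The difference was -0.030 ± 0.10 (SE), with an adjusted p of 0.98 in limma. Its interval, 0.822-fold to 1.17-fold, is relative to a signal 0.28 above the median probe set, a range in which RMA compresses folds.

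Myh7b and Myh6, the other relatives of the slow chain, had negative differences that did not pass the test. Myh7b read 6.58, 6.65 and 6.63 on the control arrays and 6.32, 6.59 and 6.34 on the arrays labelled MLC-SOCS-3. Replicates 1 and 3 labelled MLC-SOCS-3 lay below the controls, and replicate 2 lay among them. The difference of -0.20 ± 0.09 (SE) had the smallest unadjusted p of the family, 0.070 in limma (adjusted p = 0.83). Without MLC-SOCS-3 replicate 2 it was -0.29 ± 0.07 (SE), with an unadjusted p of 0.00996 and an adjusted p of 0.92 in limma.

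The cardiac gene Myh6 read 6.12, 6.25 and 6.01 on the control arrays and 6.04, 5.97 and 5.94 on the arrays labelled MLC-SOCS-3. Control replicates 1 and 2 were the highest, and control replicate 3 lay among the other group. The difference was -0.14 ± 0.08 (SE; limma adjusted p = 0.86), at a level only 0.063 above the median probe set, and was -0.076 without control replicate 2. Of 9 other cardiac muscle genes, 4 lay above the median probe set and 0 passed limma's test. At an unadjusted p under 0.05, 1 was lower (3.5% of all genes were), the natriuretic peptide gene Nppb at -0.26 ± 0.09 (SE). Nppb lay below the median probe set, averaging 5.58 on the control arrays and 5.32 on the others. The mean level of the 9 genes was 6.72 to 6.84 on the control arrays and 6.66 to 6.72 on the others, and 3 were positive and 6 negative. Next by unadjusted p were Tnni3 at -0.32 ± 0.14 (SE) and Gja5 at -0.16 ± 0.10, with adjusted p-values of 0.83 and 0.86 in limma. Tnni3 averaged 5.97 on the control arrays and 5.65 on the others. The atrial light chain gene Myl7 read 5.43 to 5.68 over the 6 arrays, and the atrial natriuretic peptide gene Nppa 5.46 to 5.91. Actc1, of the same list, was far brighter at 11.60 to 12.91.

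Each of these 3 slow and cardiac genes carries a microRNA inside its transcribed region, and these are shown because their seeds are nearly the same. From RefSeq (GRCm38.p6), miR-208a-3p lies in Myh6 (chr14:54949072-54949093, - strand), miR-208b-3p in Myh7 (chr14:54975710-54975731, - strand) and miR-499-5p in Myh7b (chr2:155622893-155622913, + strand). Bases 2 to 8, the seed, are in capitals. The seeds of miR-208a-3p and miR-208b-3p were identical, and that of miR-499-5p shared their first letters.
mmu-miR-208a-3p: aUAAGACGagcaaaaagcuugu
mmu-miR-208b-3p: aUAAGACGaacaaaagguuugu
mmu-miR-499-5p: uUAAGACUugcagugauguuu

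Probe sets were looked up for 2 of these microRNA genes, Mir208a and Mir499, and not for Mir208b. Mir208a, inside Myh6, read 2.79 to 3.26 over the 6 arrays, and Mir499, inside Myh7b, read 3.78 to 4.40, both below the median probe set. Mir499 differed by 0.20 ± 0.17 (SE) between the labelled groups and its host Myh7b by -0.20 ± 0.09, and neither passed limma's test (adjusted p = 0.88 and 0.83).

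The developmental genes Myh3 and Myh8 had differences of opposite sign, and neither passed the test. Embryonic Myh3 was the only member below the median probe set. It read 5.71, 5.92 and 5.77 on the control arrays and 5.77, 5.63 and 5.59 on the arrays labelled MLC-SOCS-3, so the groups overlapped. Its difference was -0.14 ± 0.09 (SE; limma adjusted p = 0.86), and -0.080 without control replicate 2.

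Perinatal Myh8 read 7.19, 7.32 and 7.30 on the control arrays and 7.35, 7.41 and 7.30 on the arrays labelled MLC-SOCS-3. Control replicate 1 was the lowest, as it was for Myh4, and control replicate 2 lay above MLC-SOCS-3 replicate 3. The difference was 0.084 ± 0.070 (SE; limma adjusted p = 0.87), and 0.045 without control replicate 1 or 0.054 without MLC-SOCS-3 replicate 2. The extraocular gene Myh13 read 6.28, 6.18 and 6.37 on the control arrays and 6.01, 6.52 and 6.20 on the transgene-labelled ones. Both its lowest and its highest value came from the latter, and the difference was -0.035 ± 0.14 (SE; limma adjusted p = 0.98).

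Genes of immature or regenerating fibres, the usual company of Myh3 and Myh8, gave no call either. Of 14 listed genes 13 were measured, of which 0 passed limma's test over all probe sets in either direction and 0 had an unadjusted p under 0.05, against 4.86% of all genes. Their median difference was -0.028, beside -0.016 over all 19938 genes, with 3 positive and 10 negative (43.8% of all genes were positive). Chrng, the fetal subunit of the acetylcholine receptor, was at -0.26 ± 0.12 (SE), and Myl4, an embryonic and atrial light chain, at -0.16 ± 0.08. Their adjusted p-values in limma were 0.83 and 0.85. Chrng was close to the median probe set, averaging 6.05 on the control arrays and 5.79 on the arrays labelled MLC-SOCS-3.

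Intensities of different probe sets depend on the probes as well as on the RNA, so the order of the averages (Myh4 14.27, Myh1 13.78, Myh2 12.02, Myh8 7.31, Myh7b 6.52, Myh7 6.27, Myh13 6.26, Myh6 6.06 and Myh3 5.73) is not an order of transcript amounts. The ranges over the 6 arrays of Myh4, Myh1 and Myh2 did not touch one another. Next to each other in this order, Myh7b and Myh7, Myh7 and Myh13, and Myh13 and Myh6 overlapped in their ranges, while Myh8 lay above and Myh3 below all of these. The coding sequences of Myh1, Myh2 and Myh4 are closely alike, and the probe sequences were not used here, so signal shared between the 3 probe sets was not tested.

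The balance of adult isoforms within an array avoids any shift common to that array. The IIa gene Myh2 was low against the IIx and IIb genes on every array labelled MLC-SOCS-3. The log2 difference Myh2 minus Myh1 was -1.23, -1.80 and -1.72 on the control arrays and -1.96, -1.98 and -1.88 on the arrays labelled MLC-SOCS-3. The groups did not overlap, and control replicate 1 again stood apart. The shift between groups was -0.36 (exact permutation test, two-sided, p = 0.10, the smallest that 3 arrays against 3 can give, and 0.30 adjusted over the 6 pairs compared).

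Myh2 minus Myh4 gave a like picture, with -1.66, -2.33 and -2.28 on the control arrays and -2.41, -2.49 and -2.36 on the arrays labelled MLC-SOCS-3. The groups did not overlap, and the shift was -0.33 (exact permutation p = 0.10, adjusted 0.30). Both pairs share Myh2, so they are not independent. Without control replicate 1 the shifts were -0.18 against Myh1 and -0.12 against Myh4, and the groups still did not overlap. The exact permutation p was 0.20 for each, the smallest that 2 arrays against 3 can give.

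The other 4 pairs overlapped between groups. Myh1 minus Myh4 was -0.43, -0.53 and -0.56 on the control arrays and -0.45, -0.51 and -0.47 on the transgene-labelled arrays, a shift of 0.027 (exact permutation p = 0.60). The 6 values lay close together. The pairs with Myh7 shifted by -0.27 for Myh2, 0.090 for Myh1 and 0.063 for Myh4, with exact permutation p-values of 0.40, 0.40 and 0.70. Without control replicate 1 the shift of Myh2 against Myh7 was -0.039 (exact permutation p = 0.80). That of Myh4 against Myh7 was -0.029 without MLC-SOCS-3 replicate 2, and that of Myh1 against Myh7 was 0.012 without the same array.

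**Figure D4:**
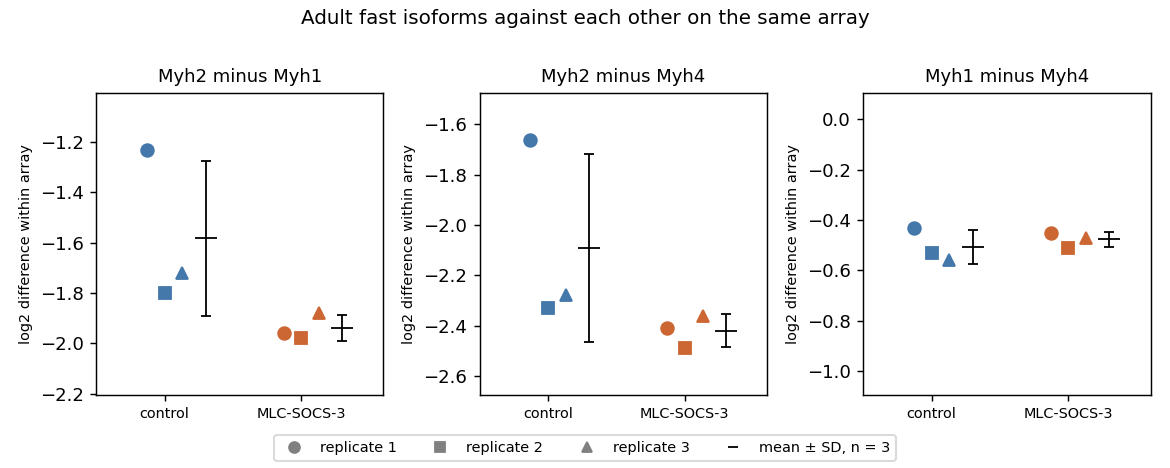
Within-array log2 differences between the probe sets of Myh2, Myh1 and Myh4. Points are arrays (shape by replicate number), bars are mean ± SD with n = 3, and each panel spans 1.2 log2 units. Myh2 minus Myh1 lies at -1.80 or above on the control arrays and at -1.88 or below on the arrays labelled MLC-SOCS-3, while Myh1 minus Myh4 overlaps.

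Slow fibre genes other than the heavy chains were listed to set beside Myh2 and Myh7. Of the 13 listed genes, all measured, 0 passed limma's test over all probe sets, and 1 was lower at an unadjusted p under 0.05 (3.5% of all genes were). The list's median difference was -0.026, with 4 positive and 9 negative, and it was 0.035 without control replicate 1. Myoz2, a Z-disc protein of slow and IIa fibres, read 10.23, 9.48 and 9.52 on the control arrays and 9.13, 9.30 and 9.24 on the arrays labelled MLC-SOCS-3. As for Myh2, control replicate 1 was the highest array and the groups did not overlap (7.76% of all genes were separated in that direction). Its difference was -0.52 ± 0.21 (SE; limma unadjusted p = 0.047, adjusted p = 0.83), and without control replicate 1 it was -0.28 ± 0.09 (SE; limma adjusted p = 0.98). The slow troponin gene Tnnt1 was at -0.21 ± 0.09 and the calcium pump inhibitor Pln at 0.21 ± 0.11, with adjusted p-values of 0.83 and 0.86 in limma.

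Over the whole slow fibre list, control replicate 1 had the highest mean level, by a small margin. Of the 13 genes, 5 (38.5%) were highest on that array, beside 25.3% of all genes. This was not particular to slow fibre genes. The share was 66.7% in the whole-muscle list and 57.1% in the smooth and non-muscle myosin list. It was 30.8% in the fast fibre and immature fibre lists, 22.2% in the thick filament and cardiac lists and 12.5% in the tendon and matrix list. The slow fibre list's mean level was 9.31, 9.08 and 9.27 on the control arrays and 9.12, 9.21 and 9.08 on the arrays labelled MLC-SOCS-3, so the groups overlapped. Some of its other genes scattered between arrays and some did not. Cd36 read 12.16 to 12.21 over the 6 arrays, and Atp2a2 read 8.88 to 9.07. Myl3, the slow and ventricular essential light chain, read 9.22 on control replicate 2 and 10.46 on control replicate 1. Myl2, the slow regulatory light chain, read 7.11 on control replicate 3 and 5.78 on MLC-SOCS-3 replicate 3. None of the listed slow genes was below the median probe set on average. Whether fibre make-up of the sampled piece had a part in the Myh2 values was not tested.

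**Figure D5:**
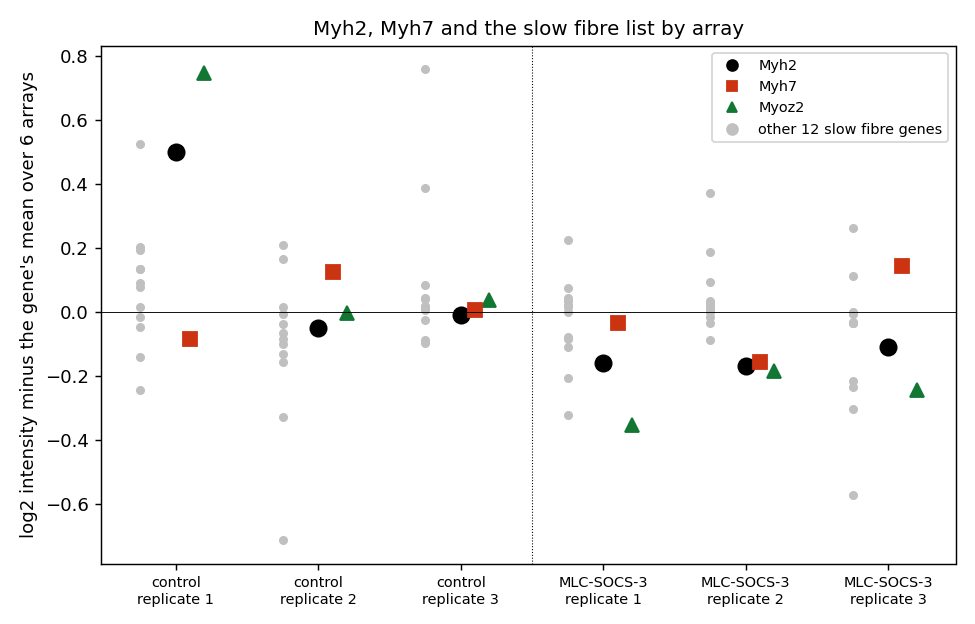
Log2 intensity minus the gene's own mean over the 6 arrays, by array, for Myh2 (black circles), Myh7 (red squares), Myoz2 (green triangles) and the other 12 slow fibre genes (grey dots). Myh2 and Myoz2 are high on control replicate 1, where Myh7 is slightly below its mean.

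Fast fibre genes other than the heavy chains differed little between arrays. Of the 13 listed, all measured, 0 passed limma's test and 0 had an unadjusted p under 0.05. The list's mean level lay between 13.95 and 13.97 on the control arrays and between 13.93 and 13.97 on the other arrays. Its median difference was -0.023, with 1 positive and 12 negative, and with each array centred on its median it was -0.0032. The fast troponin I gene Tnni2, with the smallest p of the list, was at -0.046 ± 0.063 (SE; limma adjusted p = 0.92).

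Partners of myosin in the thick filament included Mybpc1, whose groups did not overlap in the higher direction (4.52% of all genes were so separated). Of 10 listed genes 9 were measured, and 0 passed limma's test over all probe sets. At an unadjusted p under 0.05, 1 was higher (1.36% of all genes were) and 1 lower (3.5%). Mybpc1, slow myosin-binding protein C, read 13.11, 13.06 and 13.06 on the control arrays and 13.34, 13.34 and 13.32 on the arrays labelled MLC-SOCS-3. It differed by 0.26 ± 0.06 (SE; limma unadjusted p = 0.0040, adjusted p = 0.75). Mylk2, the kinase of the fast regulatory light chain, was at -0.22 ± 0.08 (adjusted p = 0.82 in limma). Mybph, a relative of myosin-binding protein C, was at 0.53 ± 0.34 and read 10.21 on MLC-SOCS-3 replicate 2 against at most 9.13 elsewhere.

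Genes that fold or remove myosin were not called. All 8 listed genes were measured, with 0 called, 4 positive and 4 negative, and a median difference of -0.0022, which was 0.026 without control replicate 1 and 0.032 without MLC-SOCS-3 replicate 2. Trim55, a sarcomeric ubiquitin ligase of the MURF group, was at -0.091 ± 0.067 (SE). The chaperone gene Hsp90aa1 was at 0.41 ± 0.36, with 9.74, 10.41 and 11.18 on the arrays labelled MLC-SOCS-3. The atrophy ligase gene Fbxo32 was at -0.061 ± 0.13, and the 3 adjusted p-values in limma lay between 0.87 and 0.96.

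Regulators of fibre type were listed with 24 genes, of which 23 were measured. In limma's test 0 passed over all probe sets, and 1 was lower at an unadjusted p under 0.05 (3.5% of all genes were). The median difference was -0.0064, with 11 positive and 12 negative, and it was 0.045 without control replicate 1 and 0.033 without MLC-SOCS-3 replicate 2. Myod1, a myogenic factor more active in fast fibres, read 9.46, 9.02 and 9.21 on the control arrays and 8.47, 9.06 and 8.72 on the arrays labelled MLC-SOCS-3. The groups overlapped through MLC-SOCS-3 replicate 2, and the difference was -0.48 ± 0.18 (SE; limma unadjusted p = 0.037, adjusted p = 0.82).

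Tbx15, a factor of glycolytic fibres, was at -0.18 ± 0.07 (SE), and Ppargc1a, a coactivator of oxidative genes, at 0.46 ± 0.27. Ppargc1a read 10.41 on MLC-SOCS-3 replicate 3 and at most 9.55 on the other arrays. The MEF2 genes, whose proteins bind the A/T-rich element type shown above, were at 0.091 ± 0.064 (Mef2a), 0.027 ± 0.064 (Mef2c) and -0.057 ± 0.071 (Mef2d). Adjusted p-values of these 5 genes in limma lay between 0.83 and 0.96.

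Correlations among the members rested in part on control replicate 1. Over the 6 arrays, Pearson's r was -0.87 between Myh2 and Myh4, -0.89 between Myh2 and Myh8, and 0.91 between Myh4 and Myh8. On control replicate 1 Myh2 was highest and Myh4 and Myh8 lowest, and over the other 5 arrays the values were -0.16, -0.74 and 0.73. Myh2 and Myh1, whose groups lie apart in opposite directions, had an r of -0.58 over 6 arrays and -0.99 over these 5. Myh3 and Myh6, both near the median probe set, had an r of 0.86 and 0.92. These are descriptions of few points that share their arrays. For Myh7, r with the other members lay between -0.52 and 0.27 over the 6 arrays. Without control replicate 1 it ran from -0.885 with Myh8 to 0.529 with Myh2.

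Other genes with the most similar pattern over the 6 arrays were sought among 11048 genes above the median probe set, by Pearson's r. Myh3, below it, was left out. With so many genes and 6 arrays, high values are found for any pattern, and they are given as a description. For Myh2 the 3 highest were Aaas, a nuclear pore protein gene (r = 0.998), Ppp1r37 (0.995) and Dffa, the inhibitor of the caspase-activated DNase (0.994). Without the 2 arrays farthest from the median of Myh2, control replicate 1 and MLC-SOCS-3 replicate 2, r was 0.997, 0.88 and 0.86. For Myh1 they were Lclat1 (0.977), Slc25a22 (0.973) and Dnajc16 (0.972), and for Myh4 Cmtm7 (0.982), Tpcn1 (0.974) and Arhgap19 (0.973), of which Arhgap19 was at 0.61 without control replicate 1 and MLC-SOCS-3 replicate 2.

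For Myh7 the closest was Slc2a3, a glucose transporter gene (0.993), followed by Znrd2 (0.983) and Fam216a (0.977). Myh7b was closest to Copz2 (0.974), Nkain2 (0.970) and Ttll1 (0.969), of which Ttll1 fell to -0.27 without MLC-SOCS-3 replicates 1 and 3. Myh6 was closest to Meis3 (0.989), Zc3h12a (0.979) and Borcs5 (0.976), and Myh8 to Prepl (0.993), Scn2a (0.989) and Zbed5 (0.986). Myh13 was closest to Ostn, which encodes the muscle-secreted peptide osteocrin (0.992), P3h2 (0.989) and Pole3 (0.981). Ostn read 7.49, 7.22 and 7.71 on the control arrays and 6.92, 7.93 and 7.22 on the arrays labelled MLC-SOCS-3, with the same lowest and highest array as Myh13.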

How the data were processed

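The deposited table holds log2 intensities, 1 value per probe set and array, deposited by the authors after RMA in Expression Console (Affymetrix), according to the submitters' processing notes. Software versions and the genome build are not stated there. RMA corrects background, brings arrays to a common distribution and summarises probes. Folds of dim and of very bright probe sets are compressed on this scale. Array medians lay between 5.98 and 6.04, so values were used as deposited. There are no counts or detection calls, and the number of arrays limits the precision. At most 36 of 35557 values were identical between any 2 arrays.

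Of 35557 probe sets, 21789 have 1 gene symbol, updated through Entrez identifiers (21698 matched the GRCm38.p6 table), and 1621 have several. Groups were compared with limma 3.58.1 in R 4.3.3 (lmFit, eBayes, two-sided, Benjamini-Hochberg over all probe sets, threshold 0.05), tested on simulated data. Pairs of isoforms used SciPy 1.17.1's exact permutation test. Lists were described with the brightest probe set per gene, with no set test. Promoters (250 bases before to 50 after the start) are RefSeq's and were aligned with Biopython 1.88. Named genes were all members, up to 3 per list with the smallest p, and the 3 most alike by r for each member but Myh3, which lies below the median probe set. Predicted genes were skipped. Named outside this rule, after their values were seen, were Myl2, Myl3, Cd36, Atp2a2, Myl7, Nppa, Actc1 and the MEF2 genes. So were the microRNA genes, neighbouring genes and non-sarcomeric chains other than Myh11. Members and lists were chosen with earlier results of these data known. Alternatives were array centring, quantile normalization, smaller probe set selections, trend and robust moderation, a replicate block and leaving out each array; leaving out arrays for the lists, Myoz2 and the correlations among members was chosen after seeing the data.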

Additional observations from a re-analysis of the deposited data

How the results depend on the processing

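No member passed limma's threshold under any alternative run; the smallest adjusted p was 0.74, for Myh7b with 1 probe set per gene. Limma called 0 of 35557 probe sets (2105 at an unadjusted p under 0.05), and 1 with 1 probe set per gene (Casp12, -1.14, adjusted p = 0.042, where fewer were tested); leaving out an array gave 0 to 1 calls, the 1 being a probe set with no single gene symbol, lower without control replicate 2. Centring arrays moved the split of those at an unadjusted p under 0.05 from 897 higher and 1208 lower to 1128 higher and 965 lower, and turned no member's direction. Leaving out 1 array turned the sign of Myh4 (without control 1; range -0.0050 to 0.054), Myh7 (without control 2, 0.027, or MLC-SOCS-3 2; range -0.11 to 0.040), Myh13 (without control 3, 0.013, or MLC-SOCS-3 1; range -0.17 to 0.080), Myh1 minus Myh4 (without control 3; -0.00011 to 0.066) and Myh4 minus Myh7 (without MLC-SOCS-3 2; -0.029 to 0.16). It also turned the sign of the medians of the slow fibre list (-0.060 to 0.035), folding and turnover (-0.059 to 0.032), fibre type regulators (-0.026 to 0.045) and smooth and non-muscle myosins (-0.034 to 0.089). With no turn of sign it gave -0.19 to -0.080 for Myh3, -0.20 to -0.076 for Myh6, 0.045 to 0.11 for Myh8, -0.065 to -0.029 for the immature fibre list and -0.076 to -0.019 for the cardiac list. The fast fibre median moved from -0.023 to -0.0032 when arrays were centred, which adds a constant to each array. Centring turned the sign of the medians of the whole-muscle list (-0.014 to 0.0058), folding and turnover (-0.0022 to 0.017) and fibre type regulators (-0.0064 to 0.013). With the replicate block, limma called 0 probe sets, Myh2 stayed at -0.30 (adjusted p = 0.87), and no call changed. Same-numbered arrays did not deviate together over all probe sets (r = -0.026, -0.018 and -0.043). With 3 arrays per group this cannot exclude pairing, and the labels do not say whether the numbers pair samples. No member had another single-symbol probe set, so that alternative was not run. Myh3, below the median probe set, has no value in the setting restricted to brighter ones.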

Other observations

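Class II myosins outside the sarcomere were measured on the same arrays. The smooth muscle chain Myh11 read 8.57, 8.59 and 8.43 on the control arrays and 8.73, 8.78 and 8.57 on the transgene-labelled arrays, a difference of 0.16 ± 0.09 (SE; limma adjusted p = 0.86). The non-muscle chains Myh9 (brighter probe set), Myh10 and Myh14 differed by 0.014 ± 0.085, 0.043 ± 0.19 and -0.024 ± 0.11, with adjusted p-values of 0.98 to 0.99 in limma. Myh15 read 3.27 to 3.50, below the median probe set. Tendon and matrix genes, listed as another tissue a dissected muscle can hold, had 1 positive and 7 negative differences among 8 genes, with a median of -0.21 and 0 called by limma. The median was -0.32 without control replicate 1 and -0.14 without control replicate 2. At an unadjusted p under 0.05, 3 were lower (Mkx, Cilp2 and Comp), where 3.5% of all genes were. Mkx lay below the median probe set, averaging 5.74 on the control arrays and 5.39 on the others. The mean level of the 8 genes was 7.63, 7.97 and 7.94 on the control arrays and 7.61, 7.70 and 7.62 on the others, and control replicate 1, highest for Myh2, was the lowest control.

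The protein-coding genes that flank the heavy chain run on chromosome 11 were Sco1, at 0.025, and Gas7, at 0.16 (log2 differences, MLC-SOCS-3 minus control). Beside Myh6 and Myh7 lay Cmtm5 at -0.11 and Ngdn at 0.041, and beside Myh7b lay Gss at 0.098 and Trpc4ap at -0.028. Unadjusted p-values of these 6 genes in limma lay between 0.10 and 0.73.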
